A study of Mus musculus with 16 samples.

Results

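The 10 genes described here are those through which cytotoxic lymphocytes kill a target cell and signal that they have found one. They are Gzma, Gzmb, Gzmk, Prf1 and Nkg7 of the cytotoxic granule, the death ligand Fasl, the cytokine Ifng, the activating receptor Klrk1 and the coreceptor chains Cd8a and Cd8b1. They were taken by symbol from the 30095 genes of a bulk RNA sequencing table, and all 10 were present and passed the filter on low values (at least 1 CPM, a read count scaled to the depth of its library, in at least 2 libraries), as 17546 genes did.

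RNA was sequenced from lungs of C57BL/6 mice carrying tumours of HKP1, a mouse lung adenocarcinoma line, taken 24 to 48 hours after radiotherapy (RT). The mice received 0, 4 or 8 Gy together with anti-PD-1, which blocks an inhibitory receptor of activated T cells, or with IgG as its control. The 16 libraries, each made from a pool of 3 to 4 mice, comprised 3 IgG and 2 anti-PD-1 pools at 0 Gy, 2 IgG and 3 anti-PD-1 pools at 4 Gy, and 3 of each antibody at 8 Gy. All groups carried HKP1 tumours and received an antibody, so no group without tumour or without antibody was compared. The labels do not say which pools share a litter or a day, so p-values measure the spread between pools, which may be partly technical.

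Cytotoxic T cells and natural killer (NK) cells store perforin and granzymes in secretory granules. On contact with a target, perforin (Prf1) opens its membrane, granzymes enter and cleave proteins of the death pathways, Fasl on the lymphocyte can trigger the death receptor Fas, and interferon gamma (Ifng) is secreted and acts on surrounding cells. Klrk1 encodes NKG2D, which recognises stress-induced ligands, and Cd8a and Cd8b1 form the coreceptor with which CD8 T cells bind MHC class I. In whole lung these genes are read against a large excess of RNA from other cells, and fewer cells of a type and less RNA per cell cannot be told apart.

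The 250 bases before the transcription start are shown for the 4 genes that were higher at 8 Gy than at 0 Gy and for Gzmk, which moved differently, because genes that moved together may be compared in their promoters. They are from RefSeq on GRCm38.p6, read 5′ to 3′ along the gene's strand, and 9 of the 10 genes were matched, Cd8b1 being the exception. Capitals mark matches on either strand to 5 motifs: the Runx motif TGTGGT, the T-box motif AGGTGTGA, the STAT motif TTCNNNGAA, the AP-1 motif TGANTCA, and the interferon response element, in which GAAA recurs after 2 bases of any kind.
Gzmb, chr14:56262335-56262584, minus strand: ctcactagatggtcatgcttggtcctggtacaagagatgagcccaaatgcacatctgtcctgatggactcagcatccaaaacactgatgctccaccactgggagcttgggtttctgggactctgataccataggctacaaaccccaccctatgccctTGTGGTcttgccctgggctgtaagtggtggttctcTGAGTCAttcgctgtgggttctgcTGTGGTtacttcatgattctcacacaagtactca
Prf1, chr10:61297586-61297835, plus strand: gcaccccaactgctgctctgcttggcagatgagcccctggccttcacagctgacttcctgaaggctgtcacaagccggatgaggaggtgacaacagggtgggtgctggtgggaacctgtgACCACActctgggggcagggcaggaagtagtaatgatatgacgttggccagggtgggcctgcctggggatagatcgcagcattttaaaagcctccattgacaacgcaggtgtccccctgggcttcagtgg
Ifng, chr10:118440796-118441045, plus strand: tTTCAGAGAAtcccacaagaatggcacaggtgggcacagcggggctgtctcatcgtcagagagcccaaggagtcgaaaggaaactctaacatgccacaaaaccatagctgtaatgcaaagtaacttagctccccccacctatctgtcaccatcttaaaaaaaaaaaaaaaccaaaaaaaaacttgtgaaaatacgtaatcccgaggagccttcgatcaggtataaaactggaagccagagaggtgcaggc
Klrk1, chr6:129623865-129624114, minus strand: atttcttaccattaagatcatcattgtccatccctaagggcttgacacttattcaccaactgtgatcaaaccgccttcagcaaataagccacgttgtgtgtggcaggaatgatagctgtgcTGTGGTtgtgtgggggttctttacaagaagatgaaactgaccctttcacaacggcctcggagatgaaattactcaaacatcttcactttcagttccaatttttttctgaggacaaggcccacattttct
Gzmk, chr13:113180966-113181215, minus strand: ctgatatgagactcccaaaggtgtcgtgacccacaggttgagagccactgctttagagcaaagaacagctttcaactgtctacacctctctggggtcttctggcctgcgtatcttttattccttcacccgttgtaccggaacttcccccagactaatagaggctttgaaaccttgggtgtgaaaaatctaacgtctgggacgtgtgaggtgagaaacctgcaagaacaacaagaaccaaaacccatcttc

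The Runx motif was found in 5 of the 9 promoters (Gzma, Gzmb, Klrk1, Nkg7 and Prf1), against 14.05% of 32851 mouse promoter windows of the same length. In Gzmb it occurred at -93 and -34 from the start, in Klrk1 at -129 and in Prf1, on the opposite strand, at -130. The STAT motif was found in Ifng, at -249, and in Nkg7 (7.02% of all windows), the AP-1 motif in Gzmb, at -58 (6.75%), the T-box motif in Nkg7 (1.12%) and the interferon response element in Gzma (2.98%). None of the 5 motifs was matched in the windows of Gzmk, Fasl and Cd8a. None of the motifs overlapped another in the printed windows, and a match is a stretch of letters, not a measured binding site.

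On mm10, with the GENCODE M21 annotation, Gzmb lies at chr14:56258838-56262260 and Prf1 at chr10:61297833-61304680, on the same chromosome as Ifng (chr10:118441046-118445892). Gzma (chr13:113093825-113100981) and Gzmk (chr13:113171608-113225908) are neighbours, 70.6 kb apart, and so are Cd8b1 (chr6:71322788-71337494) and Cd8a (chr6:71373427-71379173), 35.9 kb apart. Klrk1 lies at chr6:129610323-129623864, Nkg7 at chr7:43437073-43438249 and Fasl at chr1:161780689-161788495. All 10 are protein-coding, and which parts of a gene the deposited values count is not stated. Of the 50-base stretches in the Ifng exons, 19.9% also occur in Gm49751, an annotated transcript inside the gene (0.172, 0.198 and 0.310 CPM on average at 0, 4 and 8 Gy), and 6.28% of those in Cd8b1 occur elsewhere, so a few reads of these genes may be split. The span of Gzmk holds Esm1 on the opposite strand, with 0 exon bases in common, and the RefSeq start used for its promoter lies inside that span. The RefSeq starts of Nkg7 and Gzmb also differ from the spans given here. The Nkg7 window ends at 43437137, inside its span, and the Gzmb window begins at 56262335, outside its span. Motif positions are counted from the RefSeq start.

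Per kilobase of exon, over the 16 libraries, the mean level was highest for Nkg7, a granule membrane protein, at 62.6 CPM per kb. Gzma (25.6), Cd8b1 (23.3), Gzmb (23.1) and Cd8a (17.8 CPM per kb) followed, then Prf1 at 9.44 and Ifng at 4.56. The lowest were Gzmk (2.70), Klrk1 (2.64) and Fasl (2.25 CPM per kb). This order rests on the exon bases of all annotated transcripts, 7183 for Klrk1, the most of the 10 genes. In CPM, Klrk1 averaged 18.9 over the 16 libraries, against 4.35 for Fasl and 3.75 for Gzmk. At 0 Gy the order differed: Gzmb stood at 11.7 CPM per kb, below Cd8b1 (24.3), Gzma (19.8) and Cd8a (19.7). At 8 Gy Gzmb was second after Nkg7, at 34.3 CPM per kb, followed by Gzma (28.7), Cd8b1 (26.96) and Cd8a (20.2). Neighbours in the order per kb, such as Gzma and Gzmb, or Gzmk, Klrk1 and Fasl, overlap in their libraries' values per kb.

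One read was worth 0.0155 to 0.0418 CPM, which puts the depth at about 23.9 to 64.5 M reads per library, and a floor of 3 reads stood at 0.0465 to 0.125 CPM. Replicates 2 and 3 of anti-PD-1 at 4 Gy stood apart from the other libraries: 6210 and 5435 genes had no reads in them, against 2383 to 3987 in the other 14. Both were among the less deep libraries, at about 23.9 and 31.3 M reads. Of like depth, anti-PD-1 0 Gy replicate 1 (29.9 M) had 3987 such genes and anti-PD-1 8 Gy replicate 3 (33.6 M) had 3893. The part of depth in these counts was not tested. The library numbers in the labels run together by dose, so if they mark preparation, preparation and dose cannot be told apart. Calls that use the 4 Gy groups are therefore set beside the count without these libraries. Without them 0.503% of 17311 genes tested were called at 4 Gy against 0 Gy over both antibodies. Markers of lung tissue were present in every library, and the summed level of 12 lung epithelial and endothelial genes was 10763 to 24372 CPM at 4 Gy, with no overlap with 0 Gy (1720 to 8713) or 8 Gy (1700 to 7061). Mitochondrial transcripts took 0.899 to 3.23% of the libraries at 0 Gy, 3.76 to 5.91% at 4 Gy and 1.53 to 7.53% at 8 Gy, and haemoglobin transcripts 0.194 to 3.00% over all libraries. At 8 Gy the lowest mitochondrial share, 1.53%, belonged to anti-PD-1 replicate 3, which was also the lowest 8 Gy library for each of the 10 genes. The mitochondrial share moves with dose, and its part in the results was not tested. The T cell genes Cd3d, Cd3e and Cd3g and the NK cell genes Ncr1, Klrb1c and Klra8 were detected at all 3 doses.

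**Figure D1:**
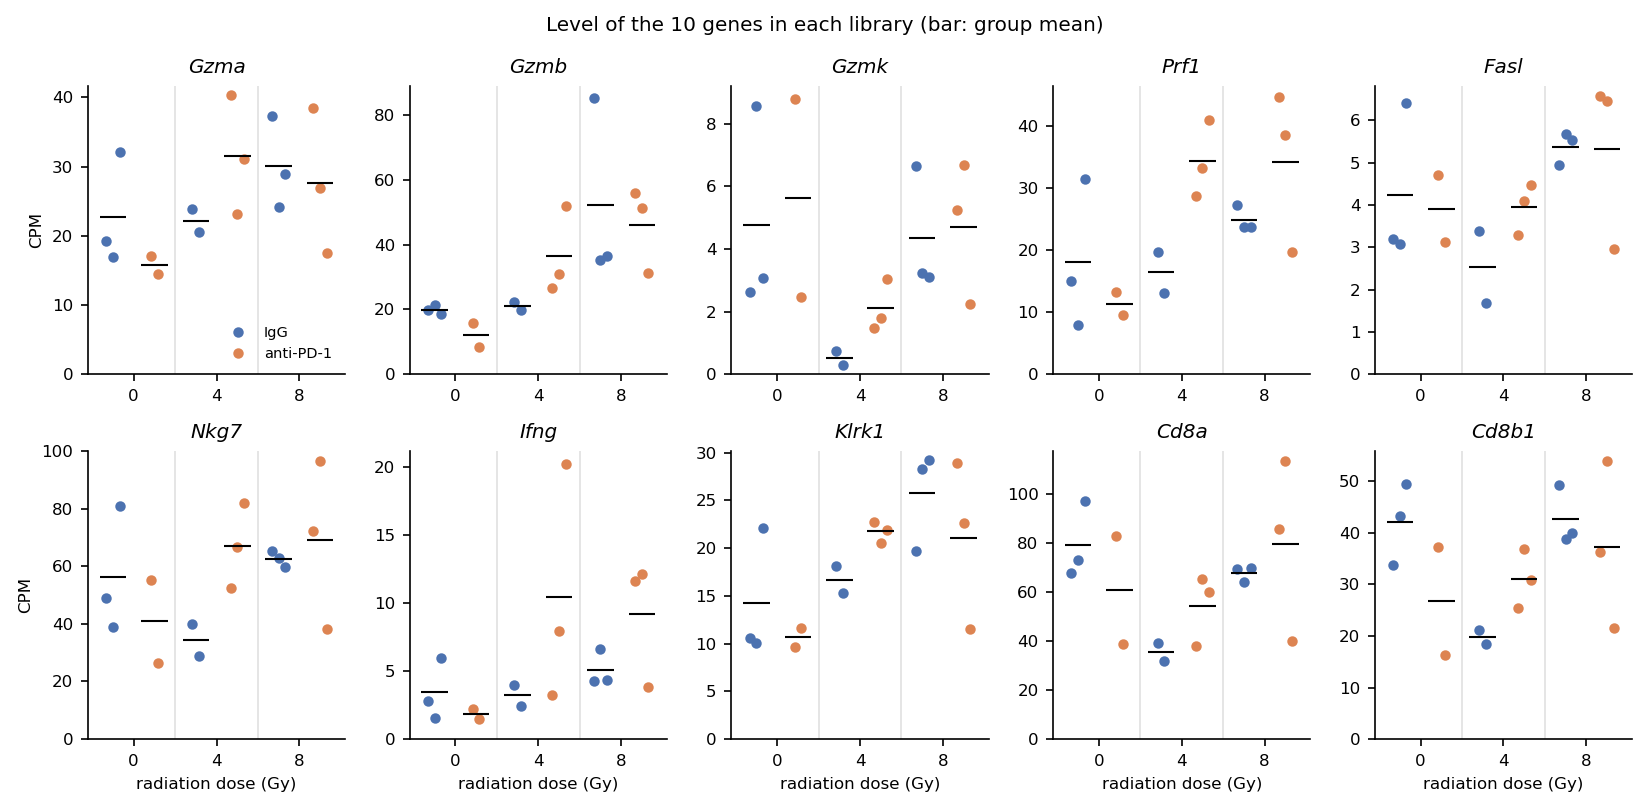
Level of each of the 10 genes in CPM (vertical axis, from 0) against radiation dose in Gy, with 1 point per library, IgG in blue, anti-PD-1 in orange and a bar at each group's mean. All 6 libraries at 8 Gy lie above all 5 at 0 Gy for Gzmb (31.1 CPM or more against 21.5 CPM or less), while the ranges of the other 9 genes overlap.

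Granzyme B and perforin, the protease and the pore of the killing granule, were higher after 8 Gy than without radiation. Gzmb stood at 19.7, 21.5 and 18.7 CPM in the IgG pools at 0 Gy and at 15.8 and 8.57 CPM in the anti-PD-1 pools. At 4 Gy it stood at 22.4 and 19.9 CPM with IgG and at 26.5, 31.1 and 52.0 CPM with anti-PD-1. At 8 Gy it reached 85.2, 35.1 and 36.6 CPM with IgG and 55.8, 51.4 and 31.1 CPM with anti-PD-1. Every library at 8 Gy was above every library at 0 Gy, which held for 1 of the 10 genes and for 1.54% of all genes tested. The means were 16.9 ± 5.08 CPM (SD, n = 5) at 0 Gy, 30.4 ± 12.8 (n = 5) at 4 Gy and 49.2 ± 20.1 (n = 6) at 8 Gy.

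Gzmb was 2.97-fold higher at 8 Gy than at 0 Gy over both antibodies, a log2 fold change of 1.57 ± 0.26 (SE) with an adjusted p of 0.00147. The test was limma on log2(CPM + 0.5), a scale that understates the change of low genes, in 1 fit of the 6 groups, with Benjamini-Hochberg adjustment over all genes tested and a threshold of 0.05. The call held under every alternative and without any 1 library (adjusted p 0.000355 to 0.0123). It was also called within each antibody: the log2 fold change was 1.24 ± 0.34 with IgG (adjusted p = 0.0349) and 1.89 ± 0.38 with anti-PD-1 (adjusted p = 0.0190). It was the single member called in either arm, where 1.44% and 0.957% of all genes were called higher. For fits that leave out 1 library, the share of all genes called within an arm is not given here. Both arm calls were lost without 1 library: the IgG call without IgG 0 Gy replicate 1 or 3 or any of the 3 IgG pools at 8 Gy, and the anti-PD-1 call without anti-PD-1 0 Gy replicate 2 or anti-PD-1 8 Gy replicate 1 or 2. In each of these fits 0 of the 10 genes were called, except without IgG 0 Gy replicate 3, where Klrk1 and Prf1 were called instead.

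Prf1 stood at 15.01, 7.98 and 31.4 CPM with IgG and 13.2 and 9.58 CPM with anti-PD-1 at 0 Gy. At 4 Gy it stood at 19.7 and 13.1 CPM with IgG and 28.7, 33.1 and 40.9 CPM with anti-PD-1. At 8 Gy it stood at 27.2, 23.7 and 23.8 CPM with IgG and 44.6, 38.4 and 19.7 CPM with anti-PD-1. The IgG 0 Gy library at 31.4 CPM lay inside the 8 Gy range, and the other 4 unirradiated libraries lay below it. Prf1 was 2.10-fold higher at 8 Gy than at 0 Gy over both antibodies (log2 fold change 1.07 ± 0.29, adjusted p = 0.0201). By antibody, the log2 fold change was 0.65 ± 0.39 with IgG (adjusted p = 0.302) and 1.48 ± 0.43 with anti-PD-1 (adjusted p = 0.0829). Among the other alternatives, the additive model and scaling to the leukocyte gene Ptprc lost the call over both antibodies. The call was lost without anti-PD-1 0 Gy replicate 2 (adjusted p = 0.0884) or anti-PD-1 8 Gy replicate 1 (adjusted p = 0.0557).

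The other granule genes did not pass the threshold at 8 Gy against 0 Gy. Gzma, a tryptase stored beside granzyme B, averaged 20.0 ± 7.03 CPM at 0 Gy, 27.8 ± 8.04 at 4 Gy and 28.9 ± 7.99 at 8 Gy, and its log2 fold change at 8 Gy was 0.58 ± 0.22 (adjusted p = 0.0770). Gzma was called without IgG 0 Gy replicate 3 (adjusted p = 0.0230) or without anti-PD-1 8 Gy replicate 3 (adjusted p = 0.0263). Nkg7 averaged 50.1 ± 20.5, 54.1 ± 21.1 and 65.8 ± 19.0 CPM at 0, 4 and 8 Gy, with a log2 fold change of 0.48 ± 0.26 at 8 Gy (adjusted p = 0.205). Its libraries ranged from 26.4 to 81.1 CPM at 0 Gy and from 38.2 to 96.6 CPM at 8 Gy.

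Gzmk, a granzyme typical of memory-like CD8 T cells, was low at 4 Gy and not at 8 Gy. With IgG it stood at 2.61, 8.58 and 3.08 CPM at 0 Gy, at 0.758 and 0.310 CPM at 4 Gy and at 6.66, 3.24 and 3.12 CPM at 8 Gy. With anti-PD-1 it stood at 8.78 and 2.46 CPM at 0 Gy, at 1.48, 1.80 and 3.03 CPM at 4 Gy and at 5.24, 6.68 and 2.24 CPM at 8 Gy. The lowest library still held about 20 reads of the gene. Gzmk fell by 1.63 ± 0.40 on the log2 scale at 4 Gy against 0 Gy (adjusted p = 0.0219) and was 2.95-fold higher at 8 Gy than at 4 Gy (log2 fold change 1.56 ± 0.38, adjusted p = 0.00801). The fall was lost without IgG 4 Gy replicate 2 (adjusted p = 0.107), without anti-PD-1 0 Gy replicate 1 (adjusted p = 0.0764) and without the pair of libraries that stood apart (adjusted p = 0.111, log2 fold change -1.81). The 8 Gy against 4 Gy difference held without any 1 library. At 8 Gy against 0 Gy the log2 fold change was -0.07 ± 0.38 (adjusted p = 0.916).

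Interferon gamma is the cytokine by which these cells act on their surroundings. Ifng stood at 2.80, 1.53 and 5.93 CPM with IgG and 2.19 and 1.47 CPM with anti-PD-1 at 0 Gy. At 4 Gy it stood at 3.96 and 2.46 CPM with IgG and 3.20, 7.90 and 20.2 CPM with anti-PD-1, and at 8 Gy at 4.24, 6.63 and 4.32 CPM with IgG and 11.6, 12.1 and 3.85 CPM with anti-PD-1. The highest value of all, 20.2 CPM, belonged to replicate 3 of anti-PD-1 at 4 Gy, one of the libraries that stood apart. Ifng was 2.43-fold higher at 8 Gy than at 0 Gy (log2 fold change 1.28 ± 0.43, adjusted p = 0.0474), a call that was lost in 12 of the 16 fits without 1 library (adjusted p 0.0196 to 0.151 over the 16). It held without IgG 0 Gy replicate 3, anti-PD-1 4 Gy replicate 1 or 3, or anti-PD-1 8 Gy replicate 3. Of 12 other alternatives 5 lost it: no filter, a pseudocount of 1, the replicate block (adjusted p = 0.0850), the additive model and scaling to Ptprc. The log2 fold change stayed between 1.08 and 1.53 in the 16 fits without 1 library. Among the 12 other alternatives its lowest value was 0.809. By antibody, the log2 fold change of Ifng at 8 Gy was 0.64 ± 0.57 with IgG (adjusted p = 0.512). With anti-PD-1 it was 1.92 ± 0.64 (adjusted p = 0.121). The difference between these changes did not pass the threshold (1.28 ± 0.86, adjusted p = 0.997).

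Klrk1, the NKG2D receptor, stood at 10.6, 10.1 and 22.1 CPM with IgG and 9.62 and 11.7 CPM with anti-PD-1 at 0 Gy. At 4 Gy it stood at 18.1 and 15.3 CPM with IgG and 22.7, 20.6 and 21.9 CPM with anti-PD-1, and at 8 Gy at 19.7, 28.3 and 29.2 CPM with IgG and 28.9, 22.6 and 11.5 CPM with anti-PD-1. The exceptions to the separation of 8 Gy from 0 Gy were IgG 0 Gy replicate 3 and anti-PD-1 8 Gy replicate 3. Klrk1 was 1.84-fold higher at 8 Gy (log2 fold change 0.88 ± 0.24, adjusted p = 0.0190). The call was lost without IgG 0 Gy replicate 1 (adjusted p = 0.0508), anti-PD-1 0 Gy replicate 1 (0.0710) or anti-PD-1 8 Gy replicate 1 (0.0516).

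Fasl, the ligand of the death receptor Fas, stood at 3.20, 3.07 and 6.42 CPM with IgG and 4.71 and 3.13 CPM with anti-PD-1 at 0 Gy, and at 4.94, 5.68 and 5.54 CPM with IgG and 6.57, 6.46 and 2.95 CPM with anti-PD-1 at 8 Gy. At 4 Gy it stood at 3.38 and 1.69 CPM with IgG and 3.29, 4.10 and 4.47 CPM with anti-PD-1. The log2 fold change from 0 Gy was 0.37 ± 0.25 at 8 Gy (adjusted p = 0.313) and -0.30 ± 0.26 at 4 Gy (adjusted p = 0.400).

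The CD8 coreceptor chains did not differ detectably between 8 Gy and 0 Gy. Cd8a stood at 67.6, 73.1 and 96.9 CPM with IgG and 82.5 and 38.9 CPM with anti-PD-1 at 0 Gy. It stood at 39.2 and 31.9 CPM with IgG and 37.9, 65.1 and 59.7 CPM with anti-PD-1 at 4 Gy, and at 69.2, 64.1 and 69.8 CPM with IgG and 85.6, 113 and 39.8 CPM with anti-PD-1 at 8 Gy. Both IgG libraries at 4 Gy were below all 3 IgG libraries at 0 Gy, and anti-PD-1 0 Gy replicate 2 was as low as they were. Cd8b1 averaged 36.03 ± 12.5, 26.6 ± 7.44 and 39.98 ± 11.3 CPM at 0, 4 and 8 Gy. The log2 fold changes at 8 Gy against 0 Gy were 0.08 ± 0.26 for Cd8a (adjusted p = 0.863) and 0.26 ± 0.24 for Cd8b1 (adjusted p = 0.470), and at 4 Gy against 0 Gy -0.62 ± 0.27 (adjusted p = 0.111) and -0.37 ± 0.25 (adjusted p = 0.275).

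**Figure D2:**
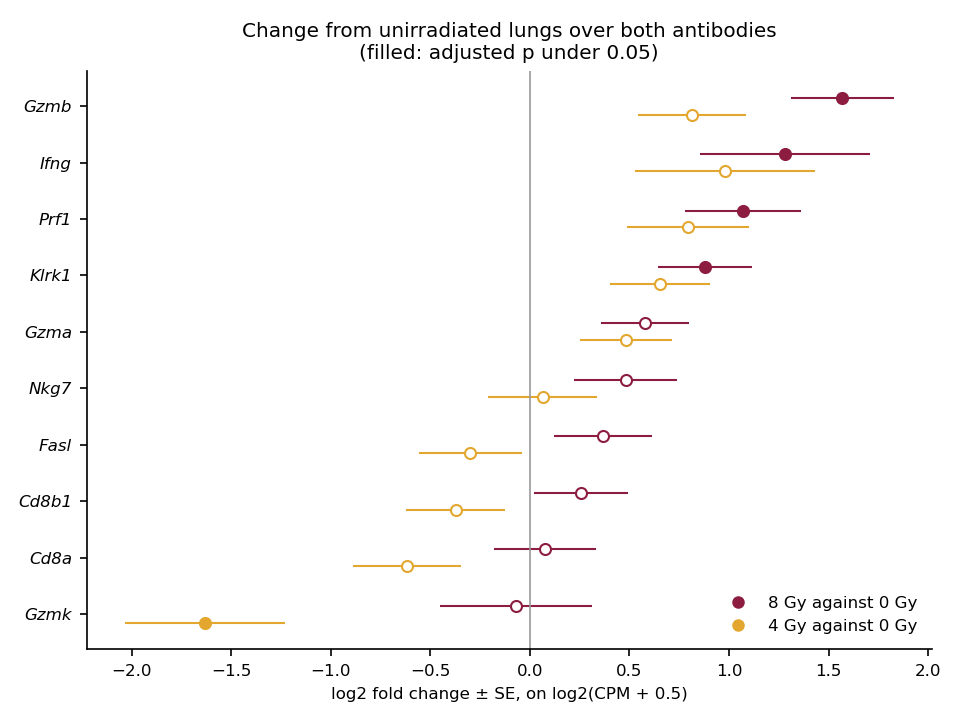
Log2 fold change from 0 Gy with its SE (horizontal axis, on log2(CPM + 0.5)) for each gene, at 8 Gy in dark red and 4 Gy in yellow, over both antibodies, with filled points where the adjusted p is under 0.05. Gzmb (1.57), Ifng (1.28), Prf1 (1.07) and Klrk1 (0.88) are filled at 8 Gy, and Gzmk (-1.63) is the single filled point at 4 Gy.

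Counted together, 4 of the 10 genes rose at 8 Gy against 0 Gy and 0 fell, where 4.68% of all genes tested were called higher and 16.1% lower. Over all genes that was 822 higher and 2818 lower, a split that equal library medians turned to 1568 and 1915, with 5 of the 10 genes then called. The 10 log2 fold changes had a median of 0.53, against -0.09 over all genes tested. Without IgG 0 Gy replicate 1 or either anti-PD-1 pool at 0 Gy 2 of the genes were called, and without anti-PD-1 8 Gy replicate 1 only Gzmb was. The calls over all genes dropped too, from 3640 to 2309 without IgG 0 Gy replicate 1 and to 2193 without anti-PD-1 8 Gy replicate 1. At 4 Gy against 0 Gy, 0 of the 10 rose and 1 fell (Gzmk), where 5.33% of all genes were called higher and 12.2% lower, and 6 of the 10 had an unadjusted p under 0.05. Gzmb (0.81 ± 0.27, adjusted p = 0.0524), Ifng (0.98 ± 0.45, 0.126), Prf1 (0.80 ± 0.31, 0.0783) and Klrk1 (0.65 ± 0.25, 0.0764) had positive log2 fold changes there that missed the threshold. Both comparisons share the 5 unirradiated libraries. The summed lung epithelial and endothelial markers, higher in every 4 Gy library than in any other, move with the 4 Gy values, and their part in them was not tested. Without the pair of libraries that stood apart, 0 of the 10 were called at 4 Gy, and the log2 fold changes of Gzmb and Ifng were 0.62 and 0.37. No member's libraries at 4 Gy all lay above those at 0 Gy (1.73% of all genes did).

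Between the doses, 4 of the 10 genes were higher at 8 Gy than at 4 Gy, where 2988 of the 17546 genes tested were called higher and 34.3% were called in either direction. They were Gzmk, Gzmb (log2 fold change 0.76 ± 0.26, adjusted p = 0.0366), Fasl (0.67 ± 0.25, 0.0488) and Cd8a (0.69 ± 0.26, 0.0497). Cd8b1 was just short of the threshold at 0.63 ± 0.24 (adjusted p = 0.0514). Gzma (0.10 ± 0.22), Klrk1 (0.23 ± 0.24), Prf1 (0.27 ± 0.29) and Ifng (0.30 ± 0.43) had differences of about their SE or less, with adjusted p of 0.476 to 0.755. Without the pair of libraries that stood apart Gzmk alone remained called. Among the fits without 1 library, the Gzmb call was lost in 7 of 16, those without IgG 4 Gy replicate 1 or 2, IgG 8 Gy replicate 1, or replicate 1 or 2 of anti-PD-1 at 4 or 8 Gy. The Cd8a call was lost in 11 and in 10 of 12 other alternatives, quantile normalization, equal library medians, a pseudocount of 0.1 and the replicate block (adjusted p = 0.0673) among them. It held without IgG 0 Gy replicate 2 or 3, either anti-PD-1 pool at 0 Gy or anti-PD-1 8 Gy replicate 3. The Fasl call was lost in 12 and, with the replicate block (adjusted p = 0.0748) among them, in 7 of 12 other alternatives. It held without IgG 0 Gy replicate 2 or 3, IgG 4 Gy replicate 1 or anti-PD-1 8 Gy replicate 3.

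**Figure D3:**
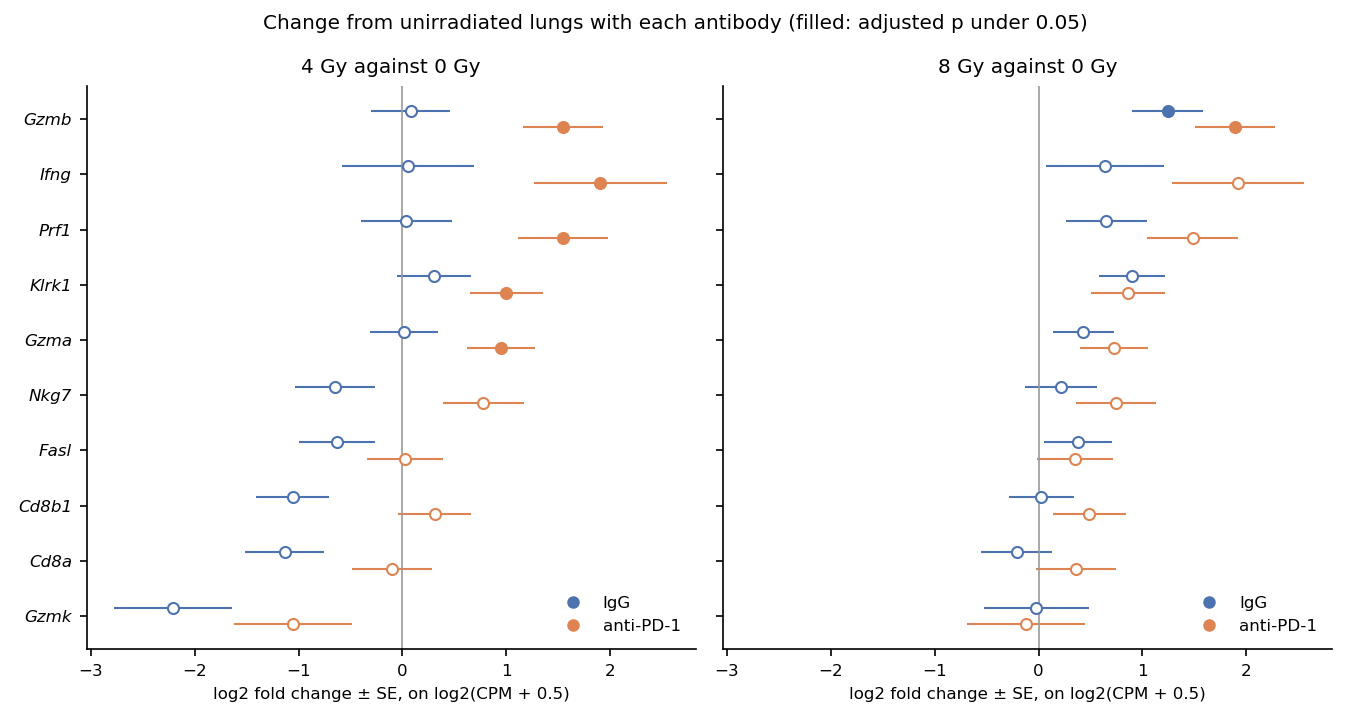
Log2 fold change from 0 Gy with its SE (horizontal axis, on log2(CPM + 0.5)) within IgG (blue) and anti-PD-1 (orange), at 4 Gy on the left and 8 Gy on the right, with filled points where the adjusted p is under 0.05. At 4 Gy all 10 orange points lie to the right of the blue ones; at 8 Gy Gzmb is filled in both antibodies.

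The comparison of antibodies asks whether blocking PD-1 went with other levels of these genes. Over all doses, 0 of the 10 genes differed between anti-PD-1 and IgG by limma's test, with 0 at an unadjusted p under 0.05, where 0.234% of all genes were called. The log2 differences ran from -0.13 ± 0.20 for Cd8b1 to 0.52 ± 0.32 for Gzmk, with adjusted p of 0.385 to 0.929. At 0 Gy 0 were called and 9 of the 10 were lower with anti-PD-1 (background 0.274%, 0 members at an unadjusted p under 0.05). At 8 Gy 0 were called, 0 at an unadjusted p under 0.05 (background 0.0057%).

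At 4 Gy all 10 genes were higher with anti-PD-1 than with IgG, but 0 passed the threshold, and 3 had an unadjusted p under 0.05, where 15.5% of all genes were called. The largest were Gzmk (log2 difference 1.32 ± 0.57, adjusted p = 0.110), Ifng (1.25 ± 0.64, 0.169), Prf1 (1.05 ± 0.43, 0.0989) and Nkg7 (0.95 ± 0.39, 0.0951). Outside the pair that stood apart, this anti-PD-1 group holds only replicate 1. Replicate 1 lay between the IgG libraries at 4 Gy for Ifng (3.20 against 2.46 and 3.96 CPM), Fasl (3.29 against 1.69 and 3.38) and Cd8a (37.9 against 31.9 and 39.2). It lay above both for Gzma, Gzmb, Gzmk, Prf1, Nkg7, Klrk1 and Cd8b1. Against 0 Gy, 5 of the 10 rose at 4 Gy with anti-PD-1 (13.4% of all genes did): Ifng (1.91 ± 0.64, adjusted p = 0.0303), Gzmb (1.55 ± 0.38, 0.00900), Prf1 (1.55 ± 0.43, 0.0146), Klrk1 (1.00 ± 0.35, 0.0376) and Gzma (0.95 ± 0.33, 0.0352). With IgG 0 were called, with 3 at an unadjusted p under 0.05 (background 0.0057%), and these were Gzmk (-2.21 ± 0.57, adjusted p = 0.204), Cd8a (-1.13 ± 0.38, 0.305) and Cd8b1 (-1.06 ± 0.35, 0.302).

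Whether the 4 Gy response differed between the antibodies was tested directly. The difference of the changes was positive for all 10 genes, with a median of 1.26, but 0 passed the threshold and 4 had an unadjusted p under 0.05, where 9.08% of all genes were called. Cd8b1 (1.37 ± 0.50, adjusted p = 0.0797), Gzmb (1.47 ± 0.54, 0.0839) and Nkg7 (1.43 ± 0.55, 0.0898) came closest. The anti-PD-1 group at 4 Gy holds both libraries that stood apart. Without them 0 of the 5 calls at 4 Gy with anti-PD-1 remained. Without anti-PD-1 0 Gy replicate 2 none remained either, without anti-PD-1 4 Gy replicate 3 only Gzmb did, without anti-PD-1 0 Gy replicate 1 Gzmb and Prf1 did, and without anti-PD-1 4 Gy replicate 1 or 2 3 genes did. For comparisons within 1 antibody, the share of all genes called without 1 library or without the pair is not given here. These losses are therefore no result about the 10 genes in particular. Over both antibodies, the genes called at 4 Gy against 0 Gy went from 3076 to 988 without anti-PD-1 4 Gy replicate 3. The difference of the changes for 8 Gy gave 0 calls, 0 members at an unadjusted p under 0.05, and adjusted p of 0.997 to 0.999 (background 0.0%). Between 8 and 4 Gy, Gzmk was the single gene called with IgG (2.19 ± 0.57, adjusted p = 0.0350, background 1.64%), a call lost without any 1 of the 5 IgG libraries at those doses, and with anti-PD-1 0 of the 10 were called, 0 at an unadjusted p under 0.05, although 41.8% of all genes were.

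Set against Cd8a in the same library, Gzmb, Prf1, Nkg7 and Ifng stood higher at both doses than without radiation, and Gzma, Fasl, Gzmk and Cd8b1 overlapped between the doses. The log2 difference of Gzmb from Cd8a averaged -2.06 ± 0.30 (SD; range -2.35 to -1.74) at 0 Gy, -0.65 ± 0.32 (-1.06 to -0.20) at 4 Gy and -0.60 ± 0.51 (-1.13 to 0.30) at 8 Gy. For Prf1 the means were -2.29, -0.83 and -1.29, and for Ifng -4.55, -2.90 and -3.36. Every irradiated library lay above every unirradiated one for these 4 genes. Outside Gzmb the gap at 8 Gy was narrow. The lowest 8 Gy library against the highest 0 Gy library was -1.55 against -1.61 for Prf1 and -3.88 against -3.92 for Ifng. For Nkg7 it was -0.244 against -0.256. At 8 Gy Gzmb, Prf1, Nkg7 and Ifng were 4 of the 9 genes compared, and 0.319% of all genes tested lay above in the same way. At 4 Gy Klrk1 joined them (5 of 9), where 8.74% of all genes did so too. Without the pair of libraries that stood apart 6 of 9 did at 4 Gy, Gzma being the sixth, and 27.9% of all genes. Cd8b1, the partner chain, kept a log2 difference of -1.01 ± 0.18, -0.79 ± 0.14 and -0.86 ± 0.26 at 0, 4 and 8 Gy. Cd8a itself had a log2 fold change of -0.62 ± 0.27 at 4 Gy, which raises the mean difference of every gene from it there.

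Scaled instead to the mean of Cd3d, Cd3e and Cd3g, the shared chains of the T cell receptor complex (a choice made after seeing the data), Gzmb, Prf1 and Ifng were called higher at 8 Gy than at 0 Gy. Their log2 fold changes were 1.33 (adjusted p = 0.000355), 0.83 (0.0451) and 1.04 (0.0196), and Klrk1 was not called (0.64, 0.148), where 0.895% of all genes were called higher under that scaling. At 4 Gy Gzmb (1.15, 0.00645), Prf1 (1.13, 0.00859), Ifng (1.31, 0.00487) and Klrk1 (0.99, 0.0331) were called higher and Gzmk lower (-1.30, 0.00662), where 6.61% of all genes were called higher and 0.296% lower. With the pair of libraries that stood apart left out as well, only Gzmk was called at 4 Gy (-1.40, 0.0405), where 3.65% of genes were called, and only Gzmb and Ifng at 8 Gy. The same scaling gave Cd8a log2 fold changes of -0.16 at 8 Gy and -0.28 at 4 Gy. Scaled to Ptprc, the general leukocyte gene CD45 (204, 175 and 269 CPM on average at 0, 4 and 8 Gy), only Gzmb remained called at 8 Gy, where 0.433% of all genes were called higher. That scaling lowers every gene at 8 Gy by the same amount, and Fasl, Cd8a and Cd8b1 then had negative values. Scaling to Cd3 likewise moves all genes together against 0 Gy, down at 8 Gy and up at 4 Gy.

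**Figure D4:**
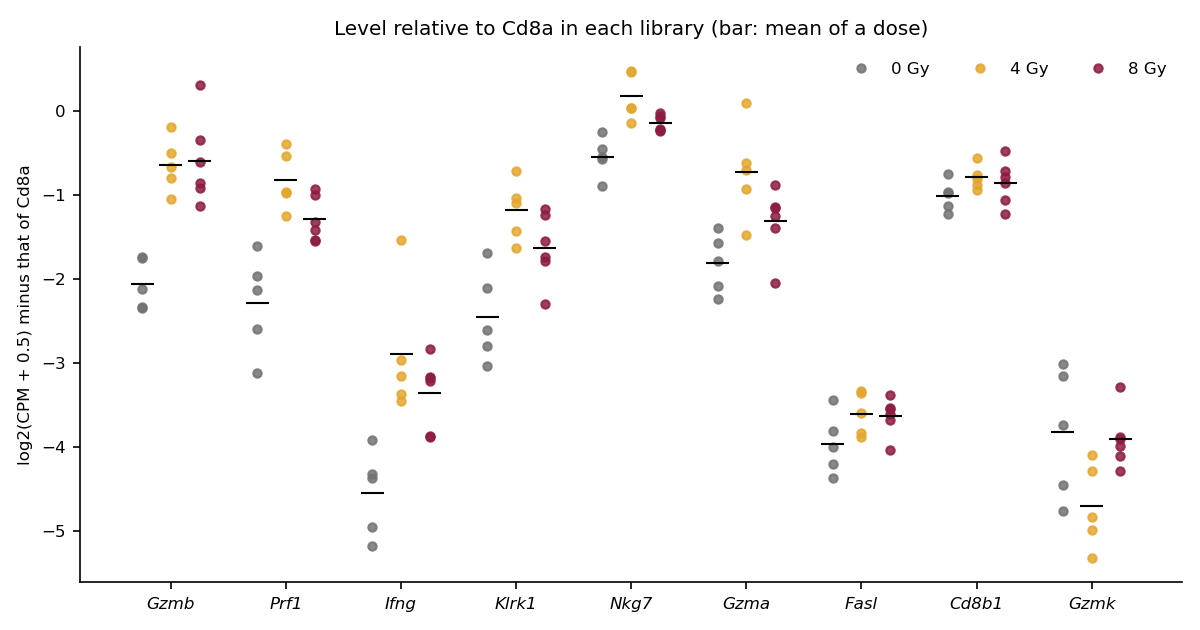
Log2(CPM + 0.5) of 9 genes minus that of Cd8a in the same library (vertical axis), with 1 point per library at 0 Gy (grey), 4 Gy (yellow) and 8 Gy (dark red) and a bar at each dose's mean. For Gzmb, Prf1, Ifng and Nkg7 every irradiated library lies above every unirradiated one, and for Gzmk the mean at 4 Gy (-4.70) is the lowest of the 3 doses.

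The proteins that fill, process and restrain the granule were looked at next. Of 15 such genes 12 could be tested (Gzmd, Gzmf and Gzmg were too low), and 5 rose and 1 fell at 8 Gy against 0 Gy, with a median log2 fold change of 0.20. Gzmc, a further granzyme, rose from 0.472 ± 0.303 CPM to 2.28 ± 0.652 CPM after 8 Gy (log2 fold change 1.61 ± 0.24, adjusted p = 0.000841) with no overlap between the doses. Srgn, the proteoglycan on which granule proteins are packed, rose from 122 ± 16.9 to 243 ± 72.6 CPM (0.92 ± 0.14, adjusted p = 0.00106), again with no overlap. Ctsc, the protease that activates granzymes (0.66 ± 0.12, adjusted p = 0.00300), and Serpinb9, the granzyme B inhibitor (0.40 ± 0.12, 0.0338), rose as well, and Stxbp2, needed for granule release, fell by 0.38 ± 0.10 (adjusted p = 0.0138). Srgn and Ctsc are also expressed by myeloid cells, and 7 of 12 monocyte and macrophage markers were called higher at 8 Gy, among them Msr1 (1.23 ± 0.17, adjusted p = 0.000500) and Ly6c2 (1.33 ± 0.22, 0.00155); their part in these results was not tested. At 4 Gy 1 of the 12 granule genes rose (Gzmc, 1.27 ± 0.25, adjusted p = 0.0125) and 2 fell, and without the pair of libraries that stood apart 0 were called (Gzmc 1.18 ± 0.30, adjusted p = 0.0998).

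Receptors and adaptors of NK cells and cytotoxic T cells, 16 genes with Ncr1 and Klrb1c among them, all had positive log2 fold changes at 8 Gy (median 0.53), and 4 passed the threshold. These were Fcgr3 (0.61 ± 0.13, adjusted p = 0.00515), Tyrobp (0.50 ± 0.11, 0.00812) and Cd244a (0.55 ± 0.14, 0.0130), which myeloid cells express too, and Xcl1, a chemokine of NK and CD8 T cells (1.17 ± 0.34, 0.0265). Ncr1, the receptor that defines NK cells, averaged 3.76 ± 3.12 CPM unirradiated and 6.15 ± 1.37 CPM after 8 Gy (0.95 ± 0.34, adjusted p = 0.0635). At 4 Gy 1 of the 16 rose (Tyrobp), with a median of 0.12, and 0 were called without that pair (Tyrobp 0.41 ± 0.14, adjusted p = 0.163).

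Of 9 ligands that Klrk1 binds, 5 were present by symbol in the deposited table and 3 passed the filter on low values. Ulbp1 averaged 15.4 ± 2.36 CPM at 0 Gy, 9.55 ± 3.50 at 4 Gy and 15.2 ± 2.05 at 8 Gy, and fell by 0.67 ± 0.16 at 4 Gy (adjusted p = 0.0201), a call lost without the pair of libraries that stood apart (-0.48 ± 0.16, adjusted p = 0.162). Raet1e averaged 1.26, 1.14 and 0.724 CPM and fell by 0.57 ± 0.15 at 8 Gy (adjusted p = 0.0187). Raet1d did not pass the threshold at either dose (0.35 ± 0.23 at 8 Gy, adjusted p = 0.302).

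In the death receptor pathway, 3 of 11 genes rose at 8 Gy and 0 fell (median 0.25). Casp8, the initiator caspase downstream of Fas, rose by a log2 fold change of 0.38 ± 0.08 (adjusted p = 0.00426), its regulator Cflar by 0.39 ± 0.11 (0.0203) and the death ligand Tnf by 0.87 ± 0.23 (0.0160). Fas itself averaged 17.1 ± 5.65 CPM at 0 Gy, 20.7 ± 1.80 at 4 Gy and 16.2 ± 4.69 at 8 Gy (-0.12 ± 0.17 at 8 Gy, adjusted p = 0.650). At 4 Gy 2 of the 11 rose, Tnf among them (1.08 ± 0.24, 0.0155), and 1 fell, and without the pair of libraries that stood apart 0 were called (Tnf 0.89 ± 0.28, adjusted p = 0.143).

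Among transcription factors and cytokines that drive the effector programme, 5 of 18 genes rose at 8 Gy and 0 fell (median 0.45). Runx3 rose from 27.2 ± 12.5 to 44.0 ± 14.7 CPM (0.83 ± 0.16, adjusted p = 0.00329), Zeb2 by 0.67 ± 0.16 (0.0119), Eomes from 6.70 ± 3.28 to 10.9 ± 2.54 CPM (0.79 ± 0.21, 0.0173) and Tbx21, the T-bet factor that drives Ifng, from 8.71 ± 6.38 to 13.4 ± 3.69 CPM (0.90 ± 0.28, 0.0373). Without the pair of libraries that stood apart, 3 of the 18 were called at 8 Gy (Runx3, Zeb2 and Eomes). At 4 Gy 1 of the 18 rose and 1 fell (0 called without the pair), and the log2 fold changes of Runx3 and Tbx21 were 0.20 ± 0.17 (adjusted p = 0.384) and 0.58 ± 0.30 (0.161).

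Among receptor, signalling and target genes of interferon gamma, 15 of 20 rose and 1 fell at 8 Gy, with a median log2 fold change of 1.21, and the counts were the same without the pair of libraries that stood apart. At 4 Gy 15 rose and 1 fell over both antibodies, with a median of 1.00, but without that pair 1 rose (Cd274) and 0 fell, with a median of 0.82. At 4 Gy 0 of the 20 were called with IgG alone, and 13 rose and 2 fell with anti-PD-1, the group that holds the pair. Many of these genes also answer to type I interferon. The gene that fell at both doses was Ifngr1, the ligand-binding receptor chain (306 ± 54.1, 213 ± 22.8 and 246 ± 22.9 CPM at 0, 4 and 8 Gy), by 0.34 ± 0.09 at 8 Gy (adjusted p = 0.0197) and by 0.52 ± 0.10 at 4 Gy (0.0108), where the call was lost without the pair (-0.50 ± 0.12, adjusted p = 0.0911). Cxcl11, a chemokine for CXCR3-bearing T cells, averaged 1.67, 5.21 and 6.68 CPM, and Gbp5 33.9, 89.6 and 106 CPM.

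**Figure D5:**
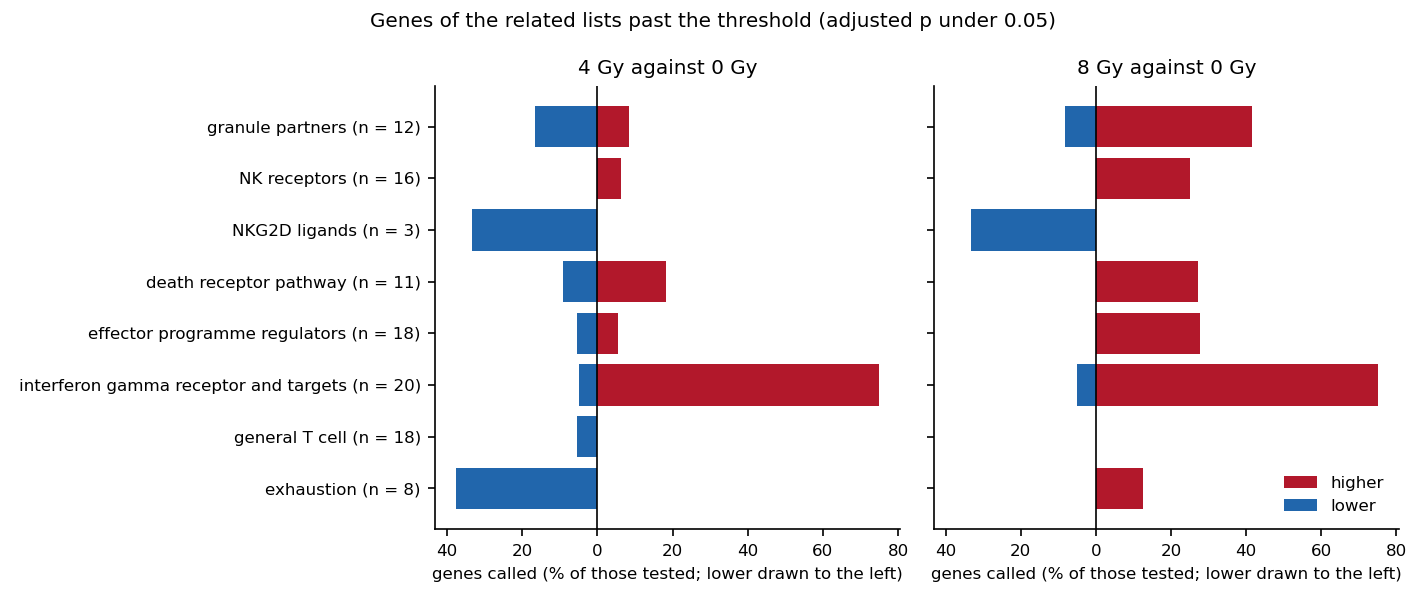
Share of the tested genes of each related list that passed the threshold (horizontal axis, % of those tested, lower drawn to the left of 0) at 4 Gy and 8 Gy against 0 Gy over both antibodies, with the number tested beside each list. The interferon gamma list has 15 of 20 genes higher at both doses, and the granule partners 5 of 12 higher at 8 Gy and 1 of 12 at 4 Gy; without the pair of libraries that stood apart 1 of 20 and 0 of 12 are higher at 4 Gy.

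Of 18 general T cell genes, 0 passed the threshold at 8 Gy against 0 Gy (median 0.27), and at 4 Gy 0 rose and 1 fell (median -0.10). Cd3e averaged 40.5 ± 14.1, 26.8 ± 5.66 and 42.7 ± 10.1 CPM at 0, 4 and 8 Gy (0.17 ± 0.21 at 8 Gy, adjusted p = 0.618), and Cd4 36.7 ± 14.4, 35.4 ± 8.87 and 43.0 ± 10.4 CPM. Of 8 genes of exhausted T cells, 3 fell at 4 Gy, Tox among them (-1.04 ± 0.31, adjusted p = 0.0355), with 0 called without the pair of libraries that stood apart (adjusted p = 0.193 for Tox), and 1 rose at 8 Gy, Entpd1 (0.61 ± 0.12, 0.00390), which macrophages express too. Between 4 and 8 Gy 5 of these 8 and 5 of the 18 T cell genes were called higher, and 3 and 0 without that pair.

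Markers of other cells moved with the doses. Of 12 lung epithelial and endothelial genes, 11 rose at 4 Gy (median 1.39; 1 called and all 12 positive without the pair of libraries that stood apart) and 3 fell at 8 Gy (median -0.66), with Ager, a type 1 alveolar cell gene, at 173, 572 and 86.2 CPM on average. All 5 red cell genes rose at 8 Gy. Of the mast cell and basophil genes, which include granule proteases, 0 of 5 tested were called at 8 Gy, and their summed level was 11.7 to 27.6 CPM at 0 Gy and 9.42 to 13.02 CPM at 8 Gy. The B cell markers gave 0 of 7 calls, with sums of 65.3 to 620 CPM at 0 Gy and 88.7 to 366 CPM at 8 Gy. Among gamma delta T and innate lymphoid genes, Zbtb16 fell at 8 Gy (-1.68 ± 0.27, adjusted p = 0.00136). The part of these shifts in the levels of the 10 genes was not tested, beyond the scalings to Cd8a, Cd3 and Ptprc given above.

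Across the 16 libraries the gene most like the mean of the 10 (each scaled to mean 0 and SD 1) was Cst7, which encodes cystatin F, an inhibitor of granule cathepsins, with a Pearson r of 0.954 among 14970 genes searched. Trbc2, a T cell receptor constant segment (0.933), Gimap7 (0.914), Il2rb, a chain of the receptor for IL-2 and IL-15 (0.910), and Cd3d (0.910) followed. With each group's mean removed, Cst7 (0.951) and Trbc2 (0.934) again came first. Among the 45 pairs of the 10 genes, r ran from -0.09 (Gzmk with Klrk1) to 0.92 (Cd8a with Cd8b1), with a median of 0.62, and Prf1 with Ifng gave 0.91. Genes measured in the same library share its depth and cell mix, both of which differed between libraries. Their part in these correlations was not tested.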

How the data were processed

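Whole-lung RNA of 16 pools was sequenced after column extraction and a TruSeq RNA library preparation, per the labels' protocols. The submitters' processing notes name STAR, Partek and mm10, without versions, and what annotation, strand setting and counting rule they used is not stated there. The authors deposited 1 table of CPM values in which 1e-04 stands for a gene with no reads, and the values were used as they stand. The smallest steps gave 0.0155 to 0.0418 CPM per read, but only 60.4 to 63.4% of values below 100 reads came out whole within 0.02 of a read, so reads were not recovered and no count model was run. The test was limma 3.58.1 (R 4.3.3) on log2(CPM + 0.5), as planned for a table of CPM.

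The 17546 of 30095 genes that reached 1 CPM in 2 or more libraries were tested, with 1 mean per group in 1 fit of all 16 libraries, a trended and robust variance, 15 contrasts and Benjamini-Hochberg adjustment over all genes. The fit was tested on simulated data. The difference from Cd8a was taken per library on the log2 scale. Library groups came from the titles. The 10 genes, the related gene lists and the tests were chosen with earlier results of these data known. From each list up to 4 genes with the lowest p at 8 Gy against 0 Gy were named, together with the binding partners of the 10 genes, Ctsc, Serpinb9, Cd3e, Cd4 and Ncr1. Tox, Ulbp1 at 4 Gy and Ptprc were named after their values were seen. Shared 50-base stretches and overlaps used GENCODE M21. Alternatives covered normalization, filter, pseudocount, model, replicate block, the pair of libraries that stood apart, each library in turn and, added later, scalings to Cd3 and Ptprc.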

Additional observations from a re-analysis of the deposited data

How the results depend on the processing

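How many of the 10 genes passed the threshold depended on the model and scaling in several comparisons; the cause was not tested. At 8 Gy against 0 Gy over both antibodies (4 called) an additive model of dose and antibody called 2 and scaling to Ptprc 1. At 4 Gy against 0 Gy (1 called) quantile normalization called 3, equal library medians 2, scaling to Cd3 5, and both the fit of only the groups compared and the fit without the pair of libraries that stood apart 0. At 8 Gy against 4 Gy (4 called) no filter, the additive model, the fit without that pair and scaling to Cd3 called 1 each, the replicate block 2 and scaling to Ptprc 0. With IgG at 8 Gy against 0 Gy (1 called), only the groups compared and both scalings called 0, and with anti-PD-1 (1 called) only the groups compared and scaling to Ptprc called 0. At 4 Gy against 0 Gy with anti-PD-1 (5 called) the replicate block and scaling to Cd3 called 3, scaling to Ptprc 2 and the fit without the pair 0. At 8 Gy against 4 Gy with IgG (1 called) quantile normalization called 2, only the groups compared 7, and a pseudocount of 1 and scaling to Ptprc 0. At 4 Gy, anti-PD-1 against IgG (0 called) gave 2 with only the groups compared. For comparisons within 1 antibody or 1 dose, the share of all genes called under each alternative is not given here. The counts for them, the 7 among them, are therefore no result about the 10 genes in particular.

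Scaling to Cd3 with that pair left out as well called 2 at 8 Gy against 0 Gy, 1 at 8 Gy against 4 Gy, and 0 at 8 Gy against 0 Gy with IgG, at 8 Gy against 0 Gy with anti-PD-1 and at 4 Gy against 0 Gy with anti-PD-1. It turned Gzma to -0.75, Prf1 to -0.26, Nkg7 to -0.0679 and Klrk1 to -0.46 at 8 Gy against 4 Gy, Cd8a to -0.16 at 8 Gy against 0 Gy, and Gzma to 0.0958 and Cd8a to -0.062 between the antibodies. Both scalings and this combination were chosen after seeing the data.

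Leaving out each library in turn gave 1 to 5 calls at 8 Gy against 0 Gy, 0 to 4 at 4 Gy against 0 Gy, 1 to 5 at 8 Gy against 4 Gy and 0 to 0 between the antibodies. The range was 0 to 2 at 8 Gy against 0 Gy with IgG, 0 to 2 with anti-PD-1, 0 to 5 at 4 Gy against 0 Gy with anti-PD-1, 0 to 2 at 8 Gy against 4 Gy with IgG, 0 to 1 with anti-PD-1, 0 to 1 between antibodies at 4 Gy and 0 to 3 for the difference of the 4 Gy changes. At 4 Gy against 0 Gy with IgG, between antibodies at 0 and 8 Gy, and for the difference of the 8 Gy changes it was 0 to 0. At 8 Gy against 0 Gy 2 genes were called without IgG 0 Gy replicate 1 or either anti-PD-1 pool at 0 Gy and 1 without anti-PD-1 8 Gy replicate 1. At 4 Gy against 0 Gy 4 were called without IgG 0 Gy replicate 3 and 0 without IgG 4 Gy replicate 2 or anti-PD-1 0 Gy replicate 1.

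The log2 fold change of Gzmk at 8 Gy against 0 Gy turned to 0.18 with quantile normalization and 0.0378 with equal medians. Scaling to Ptprc turned Fasl to -0.11, Cd8a to -0.40 and Cd8b1 to -0.21 at 8 Gy against 0 Gy, and scaling to Cd3 turned Cd8a to -0.16 there and Fasl to 0.0331 at 4 Gy. At 8 Gy against 4 Gy scaling to Cd3 turned Gzma to -0.47, Prf1 to -0.30, Nkg7 to -0.15, Ifng to -0.27 and Klrk1 to -0.35, and scaling to Ptprc gave -0.49, -0.32, -0.17, -0.29 and -0.36. Between the antibodies scaling to Ptprc turned Gzma to 0.34, Gzmb to 0.35, Klrk1 to 0.30 and Cd8b1 to 0.27. Without the pair of libraries that stood apart Nkg7 turned to -0.10 at 4 Gy, Gzma to -0.10 at 8 Gy against 4 Gy, and between the antibodies Gzma to 0.0726 and Cd8a to -0.0852. Leaving out 1 library gave ranges across 0 for Gzmk (-0.48 to 0.34), Cd8a (-0.19 to 0.35) and Cd8b1 (-0.0359 to 0.55) at 8 Gy against 0 Gy, Nkg7 at 4 Gy (-0.20 to 0.33), and Gzma (-0.0383 to 0.24) and Ifng (-0.00447 to 0.62) at 8 Gy against 4 Gy. Between the antibodies these were Gzma (-0.15 to 0.0387), Gzmb (-0.18 to 0.10), Nkg7 (-0.0071 to 0.34), Klrk1 (-0.19 to 0.0227), Cd8a (-0.11 to 0.25) and Cd8b1 (-0.33 to 0.0636).

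Over all genes, 3640 were called at 8 Gy against 0 Gy (1983 to 4407 without 1 library), 3076 at 4 Gy against 0 Gy (97 to 5748, 87 without the pair and 130 with only the groups compared), 6011 at 8 Gy against 4 Gy (2117 without the pair) and 41 between the antibodies (0 to 1327, 0 without the pair or with the additive model). The split for 8 Gy against 0 Gy became 1421 up and 1764 down after quantile normalization. For 4 Gy it was 935 up and 2141 down as reported, 1343 and 1061 after quantile normalization, and 1275 and 798 with equal medians, while fitting dose and antibody additively left 1474 calls. Scaling to Cd3, to Ptprc, and to Cd3 without the pair called 2328, 4656 and 1897 genes for 8 Gy, 1212, 470 and 632 for 4 Gy (each against unirradiated lungs), 5530, 4862 and 3422 between the doses, and 186, 1685 and 35 between the antibodies.

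The replicate numbers of the labels were not taken as pairs: over 36 same-numbered pairs of libraries the correlation of deviations from the group means ran from -0.546 to 0.442, with a median of -0.101. With the replicate block 3 of the 10 genes were called at 8 Gy against 0 Gy, 1 at 4 Gy against 0 Gy and 2 at 8 Gy against 4 Gy, and over all genes 3035, 2070, 5543 and, between the antibodies, 9. Genes below about 3 reads (0.0465 to 0.125 CPM) cannot be told from 0, and all 10 genes lay above that in every library.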
